A study of Mus musculus with 2 samples.

Results

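The genes Ifitm1, Ifitm2, Ifitm3, Isg15, Irf1, B2m, H2-D1 and H2-K1 were described in embryonic mouse heart ventricle with and without the long non-coding RNA gene Fendrr. They were chosen by symbol as interferon-induced genes and as the light chain and classical heavy chains of major histocompatibility complex (MHC) class I, and all 8 had a row among the 23276 genes of the table. The wild-type (WT) group and the knockout (KO) group, which lacked Fendrr on both alleles through homologous recombination in embryonic stem cells, shared a C57BL/6 x 129SV background. All embryos were made by tetraploid complementation, which derives the embryo proper from the stem cells, and were taken at E12.5 (days of embryonic development). How many stem cell clones were used was not given in the sources used here. For each genotype, 4 ventricles were pooled into 1 RNA sample, which gave 1 strand-specific library made after depletion of ribosomal RNA, and 1 sequencing run. Genotype and run therefore cannot be told apart, there is no replicate error, and no p-value is given anywhere. "Higher" and "lower" compare these 2 libraries only.

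Interferons are secreted proteins, many of which cells make on sensing viral nucleic acid. They act through cell surface receptors, the Janus kinases and the STAT proteins, and raise the transcription of antiviral genes and of the genes for antigen presentation. MHC class I molecules, a heavy chain paired with beta-2 microglobulin, show peptides to cytotoxic T cells and are known to be low in embryonic tissue. Some Ifitm genes are also known from early embryos, where they mark primordial germ cells without an infection.

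The promoters show what these genes share in sequence, and the stretches around the matches are printed because the class I heavy chains share an arrangement that the other genes lack. Promoters ran from 250 bases before to 50 bases after each start site and were taken from RefSeq on GRCm38.p6, a build other than the mm9 of the expression values. All 8 genes had one, and Irf1 and H2-K1 had 2, of which the first in the table that held a match is shown. The search covered both strands, and the start site is position 0. The core of the interferon-stimulated response element, GAAANNGAAA, occurred in Isg15, B2m, Ifitm2 and Ifitm3, and in 3.44% of all 32851 promoters. The core of the gamma-activated site, TTCNNNGAA, occurred in Ifitm3 and Irf1 and in 8.30% of promoters. In Ifitm3 it overlapped the second GAAANNGAAA match. H2-K1 and H2-D1 held the core of a kappa B site, GGGNNTTCC, in the region known as enhancer A, followed by a match to a shorter form of the response element, GAANNGAAA, on the other strand. The kappa B core was in 5.82% of promoters. The shorter form was in 7.52%, and a match to it also lay in the Isg15 promoter, outside the printed stretch. Ifitm1 held none of the 4 motifs in this window. Capitals mark the matches.
Isg15: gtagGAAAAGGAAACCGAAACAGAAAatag
B2m: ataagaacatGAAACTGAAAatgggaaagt
Ifitm2: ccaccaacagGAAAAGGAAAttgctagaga
Ifitm3: gGAAAAGGAAAcTTCTGAGAAACCGAAAct
Irf1: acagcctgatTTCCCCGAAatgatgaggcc
H2-K1: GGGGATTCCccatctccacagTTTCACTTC
H2-D1: GGGGATTCCccatctcctcagTTTCACTTC

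The Isg15 stretch (chr4:156200871-156200900, minus strand) held 3 overlapping response element cores in a row, between -78 and -57. That of B2m (chr2:122147538-122147567, plus strand) held 1, at -139. The Ifitm2 stretch (chr7:140955988-140956017, minus strand) held 1 at -46, and the Ifitm3 stretch (chr7:141010714-141010743, minus strand) held 2 just past the annotated start site, at 2 and 19. The Irf1 match lay at -90 (chr11:53769914-53769943, plus strand). The class I stretches (H2-K1 at chr17:34000429-34000458, minus strand, and H2-D1 at chr17:35262923-35262952, plus strand) were identical at 29 of 30 bases. They differed by A18T, with H2-K1 first and positions counted from the printed 5' end. A match describes letters and was not tested as a binding site.

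The levels of the 8 genes spanned a wide range, and B2m and Ifitm2 led in both libraries. Values are in FPKM, read numbers scaled by transcript length and library depth, which allows levels of different genes to be compared. Ifitm3 was the fifth of the 8 in WT and the third in KO. H2-K1, H2-D1, Ifitm3 and Irf1 lay between 2.79 and 6.76 FPKM. Ifitm1 and Isg15 were under 0.5 FPKM in both. For comparison, the median of the 11349 genes with an average of 1 FPKM or more across the libraries, the genes tested for a fold difference, was 8.32 FPKM in WT against 7.62 FPKM in KO. Of the 8 genes, 6 passed this minimum mean and Ifitm1 and Isg15 did not.

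**Figure D1:**
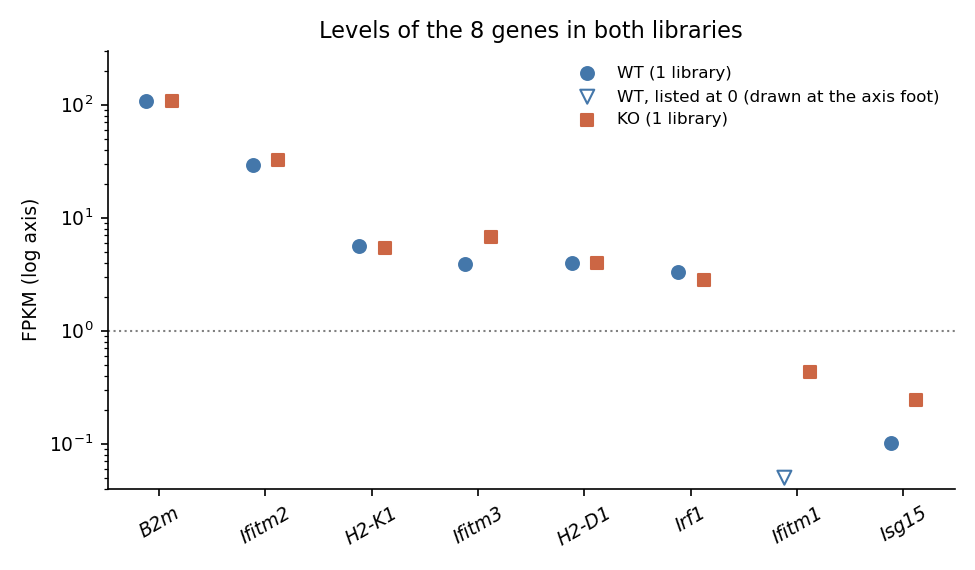
FPKM (log axis) of the 8 genes in the WT library (circles) and the KO library (squares), ordered by mean level; the dotted line marks the minimum mean of 1 FPKM and the open triangle Ifitm1, listed at 0 in WT. B2m lies near 108 FPKM in both libraries, while Ifitm1 and Isg15 lie below the line.

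None of the 6 tested genes was 2-fold apart between the libraries. On the scale log2((KO + 1)/(WT + 1)) in FPKM, 0.467% of all tested genes were at least 2-fold higher in KO (53 genes) and 0.388% at least 2-fold lower (44 genes), so that 0 of 6 lies at the background and is no result about these genes. After the median log2 ratio of all genes, -0.11, was brought to 0, these counts were 62 and 25. The 6 genes had a median log2 ratio of 0.0028, which was 0.11 above that of all genes, and 5 of the 6 exceeded the median of all genes. At a limit of 1.5-fold, which 1.54% of all genes passed upward and 3.6% downward, 1 of the 6 was higher, Ifitm3, and none was lower. The shares at both limits are also the background for the counts of each list below. A list with 0 genes past a limit is no result about that list.

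How many reads stood behind these values could be read from the table. In genes with 1 annotated transcript, low FPKM values multiplied by transcript length fell on whole multiples of 0.0764 FPKM x kb in WT and 0.0608 in KO, which is what 1 read is worth. Of the genes with about 1 to 8 reads, 65.6% of 453 in WT and 66.0% of 497 in KO lay within 0.05 of a whole number of reads, against a median of 5.26% and 5.86% at other step sizes. This implies about 13100000 mapped reads in WT and 16400000 in KO. The 95% intervals of the ratios below are exact binomial (Clopper-Pearson) intervals on these read numbers. They cover counting error only, since reads after PCR are not independent molecules, and hold nothing of the spread between animals.

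Some Ifitm genes encode membrane proteins that block the entry of enveloped viruses. Of the 2 Ifitm genes that passed the minimum mean, Ifitm3 stood further apart between the libraries. Ifitm3 was at 3.89 FPKM in WT against 6.76 FPKM in KO, about 35 and 75 reads. Its FPKM ratio of 1.74 had a counting interval of 1.13 to 2.63, and its log2 ratio of 0.67 ranked 126 from the top of 11349 genes. The KO value was the higher under all 5 other scalings, with log2 ratios of 0.75 to 0.78. With a pseudocount of 5 FPKM its log2 ratio was 0.40, inside the 1.5-fold limit. Ifitm2 was at 29.2 FPKM in WT against 32.2 FPKM in KO, about 250.7 and 346.8 reads. The ratio of 1.10 had a counting interval of 0.933 to 1.30, which includes 1 at the deposited scaling. No interval was computed at the other scalings. Its log2 ratio of 0.13 rose to between 0.24 and 0.28 under the 5 other scalings. Ifitm1 was listed at 0 in WT and was at 0.433 FPKM in KO, about 4 to 6 reads depending on the transcript. A value of 0 in WT allows up to 0.260 to 0.409 FPKM (3 reads). The KO value rests on so few reads that it too is uncertain. Whether the libraries differed in Ifitm1 cannot be told at this depth, and no fold is given.

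The other Ifitm genes were at or near 0. Ifitm5 was listed at 0 in WT and at 0.257 FPKM in KO, Ifitm7 was at 0.0838 and 0.211 FPKM, Ifitm10 at 0.0946 and 0.113 FPKM, and Ifitm6 was listed at 0 in both. All 7 Ifitm rows together summed to 33.3 FPKM in WT against 39.97 FPKM in KO. Ifitm2 gave 87.8% of this sum in WT and 80.6% in KO, and Ifitm3 11.7% and 16.9%. The level of Ifitm2 was 7.52 times that of Ifitm3 in WT and 4.77 times in KO. Of the read-length windows (100 bases) of the Ifitm2 transcript, 34.9% occurred unchanged in transcripts of other annotated genes (Gm11951, Gm45717 and Gm8865), so its level is uncertain where such reads were split. Ifitm3 and Ifitm1 had no such window in GENCODE vM21. Markers of primordial germ cells were low. Of 10, only Kit, which other cells also express, reached a mean of 1 FPKM, and Prdm14, Pou5f1, Tfap2c and Dppa5a were listed at 0 in both libraries.

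**Figure D2:**
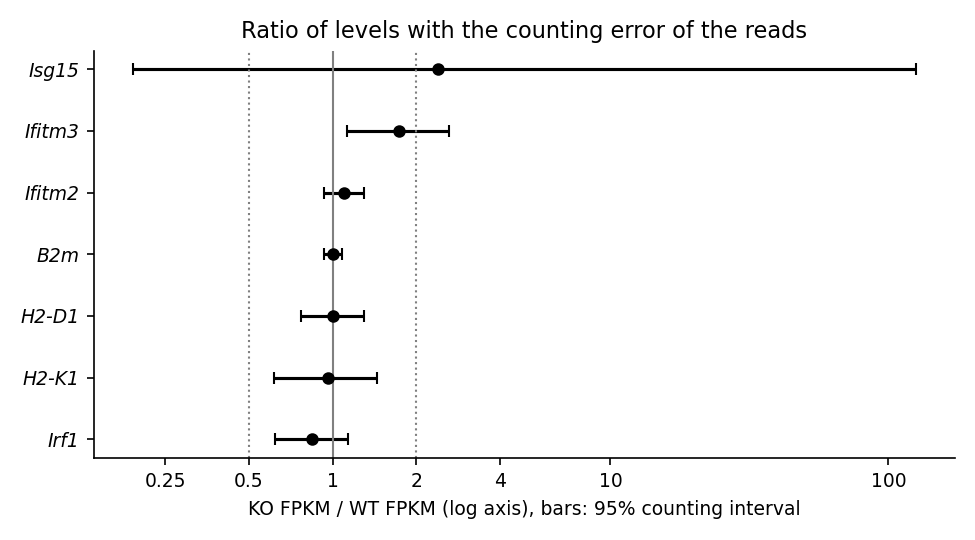
KO over WT ratio of FPKM values (log axis) for the 7 genes above 0 in both libraries; bars are 95% counting intervals from the read numbers of the shortest coding transcript, the solid line marks a ratio of 1 and dotted lines 0.5 and 2. At the deposited scaling, the only one drawn, the bar of Ifitm3 (1.13 to 2.63) alone lies wholly to one side of 1. The bar of Isg15 is the widest.

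Isg15, a ubiquitin-like protein that is among the transcripts most strongly raised by type I interferon, was almost undetected in both libraries. It was at 0.101 FPKM in WT against 0.241 FPKM in KO, values that equal 1 read and 3 reads. The ratio of 2.39 had a counting interval of 0.192 to 125, so that a difference was not detectable at this depth. The enzymes that attach and remove Isg15 were not uniformly as low. The conjugating enzyme Ube2l6 was at 11.6 FPKM in WT against 11.1 FPKM in KO, the activating enzyme Uba7 at 2.85 and 2.27 FPKM and the ligase Herc6 at 2.07 and 1.83 FPKM. The protease Usp18, itself an interferon-stimulated gene, was at 0.129 and 0.275 FPKM.

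Irf1, a transcription factor that is induced by interferon gamma and that drives class I and other target genes, was at 3.33 FPKM in WT against 2.79 FPKM in KO. This corresponded to about 90 and 95 reads, and the FPKM ratio of 0.840 had a counting interval of 0.623 to 1.13. Its log2 ratio of -0.19 lay 0.08 below the median of all genes, the only one of the 6 on that side. Of the 9 interferon regulatory factor genes, 6 were tested, none was 1.5-fold apart, and 3 lay on each side of the median of all genes. Irf3, the factor that responds to nucleic acid sensors, was at 8.83 FPKM in WT against 6.97 FPKM in KO. Irf7, which amplifies type I interferon production, was at 0.216 and 0.310 FPKM, Irf8 at 0.811 and 0.817 FPKM, and Irf4 was listed at 0 in WT and at 0.0519 FPKM in KO.

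B2m, the light chain of every class I molecule, was at 107.8 FPKM in WT against 108.2 FPKM in KO, or about 1213 and 1531 reads. With the most reads of the 8, it had the narrowest counting interval, 0.931 to 1.08 around a ratio of 1.00. This interval holds for the deposited scaling, and the log2 ratio of 0.0061 became 0.12 to 0.21 under the 5 others. The classical heavy chains were far lower. H2-D1 was at 3.943 FPKM in WT against 3.941 FPKM in KO, about 108 and 136 reads, a ratio of 1.00 with a counting interval of 0.773 to 1.30. H2-K1 was at 5.62 FPKM in WT against 5.39 FPKM in KO, a ratio of 0.960 whose widest counting interval, with the shortest coding transcript, was 0.617 to 1.45. The log2 ratios of H2-D1 and H2-K1 were -0.00041 and -0.050 as deposited and turned positive under all 5 other scalings, at up to 0.11 and 0.066, so that no direction can be given for either. The level of H2-K1 was 1.42 times that of H2-D1 in WT and 1.37 times in KO. B2m was at 11.3 times the sum of both heavy chains in WT and 11.6 times in KO.

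Further heavy chain genes of the H2 complex made up about as much as the classical pair. H2-D1 and H2-K1 gave 45.2% of the sum over 35 H2 class I heavy chain rows in WT and 48.9% in KO, the sums being 21.1 and 19.1 FPKM. Of the other 33 rows, 14 were listed at 0 in WT and 16 in KO, and 3 and 4 reached 1 FPKM. H2-Q4 was at 2.43 FPKM in WT against 2.23 FPKM in KO, and H2-T24 at 2.49 and 2.06 FPKM. H2-T22, a ligand of gamma delta T cells, was the only tested gene of the class I list that was 2-fold lower in KO, at 3.69 and 0.693 FPKM. Its relative H2-T9 went the other way, from 0.00025 FPKM in WT to 1.65 FPKM in KO, and H2-T10 was at 0.392 FPKM in both. The 3 rows summed to 4.08 FPKM in WT against 2.74 FPKM in KO, a log2 ratio of -0.44. H2-T22 shared 14.2% and H2-T10 11.8% of their 100-base windows with other annotated transcripts, so that the separate levels are uncertain. For H2-T9 no such share was obtained, and its overlap with H2-T22 was not measured. H2-D1 shared 4.64% of its windows, with 9 genes that included H2-T22, and H2-K1 shared none.

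Of the class I-like genes outside the H2 complex, Mr1 and Cd1d2 were higher in KO and Cd1d1 was near its WT level. Mr1, which presents vitamin metabolites to mucosal-associated T cells, was at 2.13 FPKM in WT against 4.58 FPKM in KO, a log2 ratio of 0.83. Cd1d2, a lipid-presenting molecule, was at 1.52 and 3.06 FPKM, while its close copy Cd1d1 was at 7.14 and 6.28 FPKM. The windows shared between these copies were not counted, so that their separate levels are uncertain. The 8 tested genes of the class I list had a median log2 ratio 0.04 above that of all genes, with 2 at least 1.5-fold higher (Mr1 and Cd1d2) and 1 at least 1.5-fold lower (H2-T22), against 1.54% and 3.6% of all tested genes.

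**Figure D3:**
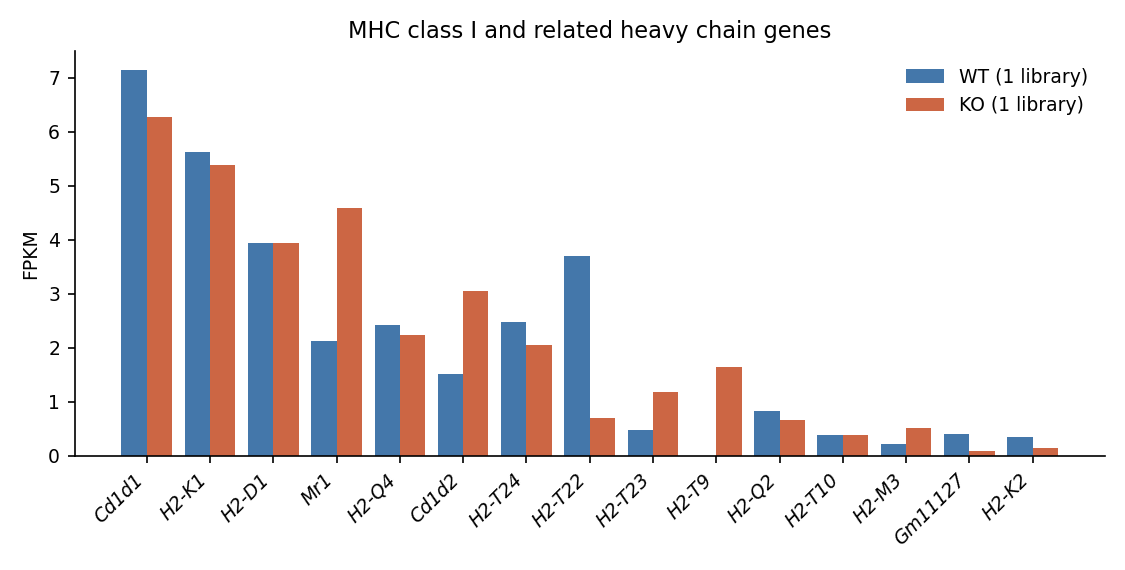
FPKM of MHC class I and related heavy chain genes that reached 0.3 FPKM in either library, in WT (left bars) and KO (right bars). H2-K1 and H2-D1 have bars of nearly equal height in both libraries, while H2-T22 falls from 3.69 to 0.693 and H2-T9 appears at 1.65.

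The machinery that supplies peptides to class I molecules held both abundant and barely detected genes. The general chaperones Calr (511 FPKM in WT against 488 FPKM in KO) and Canx (179.8 and 167.5 FPKM) were the highest. The proteasome activator genes Psme1 (92.9 and 80.0 FPKM) and Psme2 (72.5 and 81.5 FPKM) followed. Genes of antigen processing ranged from under 1 to several FPKM. The peptide transporter genes Tap1 (0.213 and 0.297 FPKM) and Tap2 (0.276 and 0.147 FPKM), the immunoproteasome subunit gene Psmb8 (0.687 and 0.796 FPKM) and Nlrc5, the class I transactivator (listed at 0 in WT and at 0.00876 FPKM in KO), all stayed under 1 FPKM. Psmb9 was listed at 0 in WT and at 0.151 FPKM in KO, while the immunoproteasome subunit gene Psmb10 was at 9.39 and 7.28 FPKM. The peptide trimming enzyme gene Erap1 was at 7.01 and 6.57 FPKM, and the bridge protein gene Tapbp at 3.99 and 5.20 FPKM. None of the 10 tested genes of this list was 1.5-fold apart, and the list's median lay 0.04 above that of all genes.

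No interferon ligand was expressed at a level that could be compared. Of 19 interferon genes with a row, 17 were listed at 0 in both libraries, and Ifnk and Ifnz did not exceed 0.0932 FPKM. The receptors were present. Ifnar1 was at 12.0 FPKM in WT against 10.297 FPKM in KO, Ifngr1 at 11.4 and 9.82 FPKM, and Ifngr2 at 33.4 and 23.9 FPKM. Ifnar2 differed in direction, at 14.4 and 20.5 FPKM, the single receptor gene of 5 above the median of all genes. Downstream, Jak1 was at 19.4 and 15.9 FPKM, Stat2 at 1.60 and 1.58 FPKM and Irf9 at 3.72 and 4.28 FPKM. None of the 5 receptor and 7 signalling genes tested was 1.5-fold apart at the deposited scaling. With the median of all genes brought to 0, Ifnar2 passed that limit, at a log2 ratio of 0.60.

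Other interferon-stimulated genes were mostly low. Of 76 with a row, 38 passed the minimum mean. Of these, 0 were 2-fold apart in either direction, against 0.467% of all tested genes higher and 0.388% lower, which is at the background. The median of all genes was exceeded by 27 of the 38, the median of the list being 0.20 above it. At least 1.5-fold higher were Ifi27l1 (5.82 FPKM in WT against 11.2 FPKM in KO, log2 ratio 0.84) and Nmi, a partner of STAT proteins (4.89 and 8.37 FPKM, log2 ratio 0.67). That is 2 of 38 at the deposited scaling, against 1.54% of all genes. With the median of all genes brought to 0, Lgals9 (5.27 and 7.98 FPKM) also passed, at a log2 ratio of 0.63. The pseudocount of 1 FPKM understates differences of the low genes in this list. Furthest below the median of all genes on this list were Ifrd1 (22.98 and 15.10 FPKM) and Trex1, a DNA exonuclease (1.80 and 1.03 FPKM). Whether each listed gene, Ifrd1 among them, responds to interferon was not tested. Some genes known for a strong response to interferon were under 1 FPKM in both libraries. Mx1 was listed at 0 in WT and at 0.0676 FPKM in KO, Ifit1 at 0 and 0.231 FPKM, Oas2 at 0 and 0.0787 FPKM, Rsad2 was at 0.585 and 0.530 FPKM, and Cxcl10 was listed at 0 in both. Others were higher, among them Iigp1 (5.58 and 6.80 FPKM), Ifit2 (5.21 and 7.04 FPKM), Bst2 (2.19 and 2.38 FPKM) and Ifi44 (2.10 and 1.67 FPKM).

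**Figure D4:**
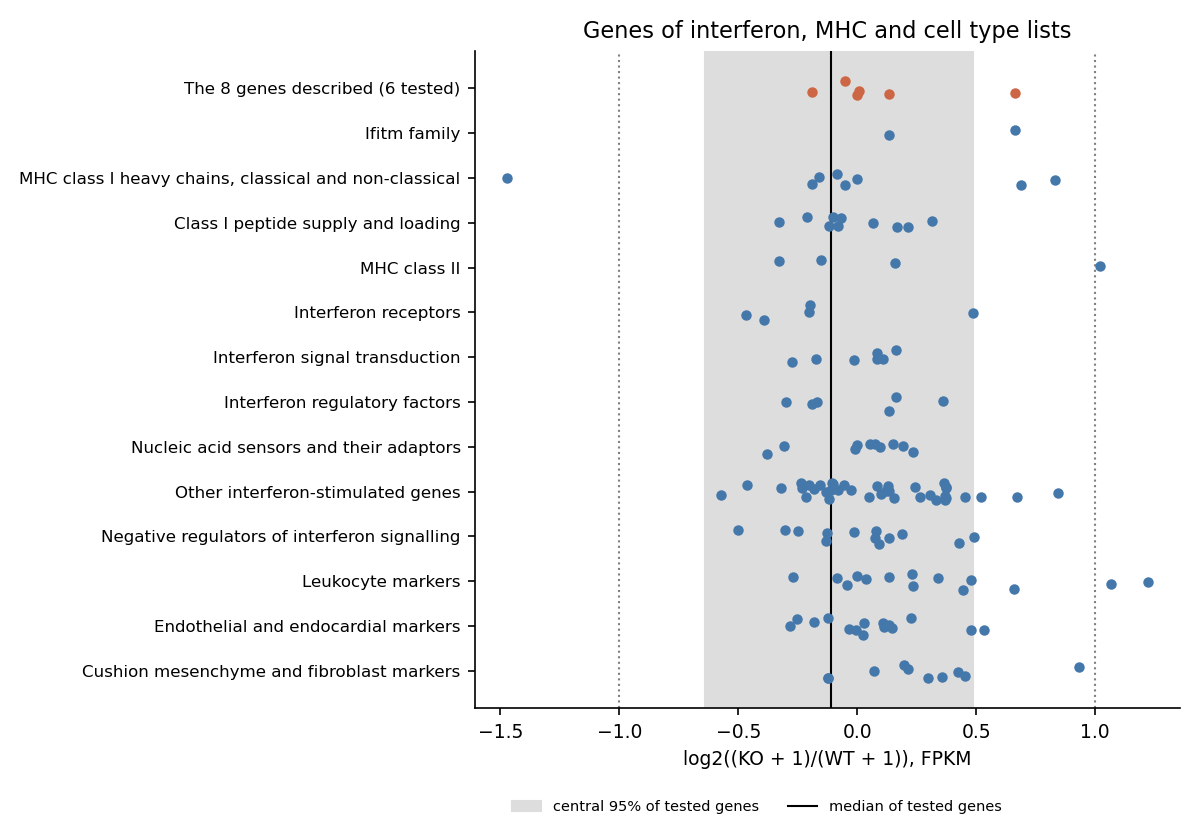
log2((KO + 1)/(WT + 1)) of the tested genes of the lists drawn, 1 point per gene. The central 95% of all tested genes is shaded, with their median as a solid line and the 2-fold limits dotted. Vertical scatter within a list has no meaning. Not drawn are Isg15 conjugation genes and primordial germ cell, liver and yolk sac, erythroid, epicardial and ventricular cardiomyocyte markers. These include Afp (log2 ratio 3.99) and Hba-a2 (-7.13, listed at 0 in KO). The 8 described genes have 6 points, of which Ifitm3 at 0.67 alone lies outside the shaded range.

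Class I and interferon-induced genes are expressed by immune and endothelial cells as well as by other cell types, and in pooled tissue fewer cells of a type and less RNA per cell cannot be told apart. Of 21 leukocyte markers with a row, 14 were tested, 13 of them exceeded the median of all genes, and 2 (Ctss and C1qb) were at least 2-fold higher in KO, against 0.467% of all tested genes. The macrophage markers C1qc (2.32 and 2.13 FPKM), Cd68 (1.44 and 1.03 FPKM) and Emr1 (1.34 and 1.27 FPKM) had lower values in KO. The summed level of the 21 leukocyte markers was 76.5 FPKM in WT against 109 FPKM in KO, most of it from Lyz2 (41.9 and 58.9 FPKM). The general leukocyte marker Ptprc was at 0.495 and 0.799 FPKM, and the T and B cell markers Cd3e and Cd79a were listed at 0 in both. Endothelial and endocardial markers summed to 325 and 332 FPKM. With the pseudocount of 1 FPKM, none of the 15 was 1.5-fold apart, against 1.54% of all tested genes higher and 3.6% lower. Flt1 was at 5.45 and 8.33 FPKM, an FPKM ratio of 1.53 without the pseudocount. With the median of all genes brought to 0, Flt1 and Erg passed that limit, at log2 ratios of 0.64 and 0.59. Of the 15, 11 exceeded the median of all genes. Among cushion mesenchyme and fibroblast markers, 8 of 10 lay above that median. Of the 10, 1 (Dpt) was at least 1.5-fold higher, against 1.54% of all tested genes. Markers of liver and yolk sac summed to 9.19 and 36.4 FPKM. Of 14, 3 passed the minimum mean, and Alb was listed at 0 in both. Of the 3, 1 (Afp) was at least 2-fold higher in KO, against 0.467% of all tested genes. Afp was at 0.110 and 16.6 FPKM, Ttr at 0.438 and 1.79 FPKM and Apob at 0.137 and 1.12 FPKM. Apoa4 and Apoa1 were listed at 0 in WT and were at 1.75 and 1.67 FPKM in KO. No marker of this list had a lower value in KO. The part of any of these cells in the Ifitm3 difference was not tested. The tissue label was checked against the ventricular light chain gene Myl2, which was abundant, at 9103 and 9478 FPKM. Other ventricular cardiomyocyte markers were less even. Of the 8, 2 were at least 1.5-fold lower in KO as deposited, against 3.6% of all tested genes, and 0 were higher. These 2 were Myl3 (2671 and 1651 FPKM) and Tnni3 (753 and 443 FPKM). Tnnt2 was at 1524 and 2174 FPKM, and 5 of the 8 exceeded the median of all genes. Fendrr gave no check of the genotype labels, since 1110050K14Rik, the former symbol of the gene, had a value of 0 in either library.

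Among MHC class II genes, which mark antigen-presenting cells, H2-Ab1 alone reached the minimum mean. The other 3 of the 4 tested genes of that list (Rfx5, Rfxank and Rfxap) encode broadly expressed transcription factors. H2-Ab1, a class II beta chain, was at 4.42 FPKM in WT against 9.99 FPKM in KO, a log2 ratio of 1.02 and thus past the 2-fold limit. Its partner chain H2-Aa was listed at 0 in WT and at 0.0569 FPKM in KO, the invariant chain Cd74 was at 0.312 and 0.0994 FPKM, and H2-Eb1 at 0.0458 and 0.0364 FPKM. The high H2-Ab1 value was thus not shared by the genes it is normally expressed with, in either library. Ciita, the class II transactivator, was listed at 0 in WT and at 0.0478 FPKM in KO. With a pseudocount of 5 FPKM the log2 ratio of H2-Ab1 was 0.67, that of H2-T22 -0.61, that of Ctss 0.82 and that of C1qb 0.52, all inside the 2-fold limit.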

How the data were processed

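The authors deposited 1 FPKM value per gene symbol and library, WT and KO, from 500 ng of RNA of 4 pooled ventricles each, read for 100 bases. The tools were Cufflinks 2.0.2, TopHat2 2.0.6 and Bowtie2 2.0.2 and the build mm9, per the submitters' processing notes. Not given in the sources used here were the annotation, the options and whether counting used strand. Per the labels, the WT run was aborted, with manual base calling and possibly a length filter, unlike the KO run. In GENCODE, Patl2 and Gm17334 overlap B2m and Irf1 on the opposite strand.

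Log2 ratios used a pseudocount of 1 FPKM, which understates differences of low genes. Genes averaging 1 FPKM or more were tested against a 2-fold limit. An exact 0 can be a failed estimate, so such a gene is called listed at 0. Read numbers came from deposited FPKM, transcript lengths in GENCODE vM21 and the value of 1 read (genes with 1 transcript of at least 1000 bases). Computations used Python 3.11.15, numpy 2.4.6, pandas 2.3.3, scipy 1.17.1 and matplotlib 3.10.9, and were tested on simulated data. The 8 genes and the 21 lists were chosen with earlier results of these data known. Named were the 8 genes, the Ifitm and class I rows, and from each list the 3 highest genes, the 2 furthest from the median of all genes and those 2-fold apart; other list members, among them those near 0, were named after their values were seen. Not every gene so chosen is printed.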

Additional observations from a re-analysis of the deposited data

How the results depend on the processing

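No paired analysis was possible because a genotype is represented by 1 library, which also cannot be left out. The count of described genes at least 2-fold higher or lower was 0 under 9 alternatives (pseudocounts of 0.1 and 5 FPKM, no filter, a minimum mean of 5 FPKM and the 5 other scalings) and with near-identical rows summed. At 1.5-fold, 1 was higher. With the Ifitm rows and the class I rows summed, 2 of the 4 values that passed the minimum mean lay above the median of all genes. The median relative to all genes ranged from 0.042 with summed rows to 0.20 at a minimum mean of 5 FPKM. Counts of all genes higher and lower at a pseudocount of 0.1 were 98 and 98, at a pseudocount of 5 they were 16 and 17, and at 1.5-fold 175 and 408. Higher genes were 26 at a minimum mean of 5 FPKM. Lower genes were 25 with median centring, 27 with upper-quartile and with trimmed-mean scaling, and 26 with quantile normalization and with equal totals. Depth limits Isg15 and Ifitm1 most.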

Other observations

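Sensors of viral nucleic acid and negative regulators of interferon signalling were all inside the 1.5-fold limit on the log2(FPKM + 1) scale as deposited. This scale understates differences of low genes such as Ptpn6, Socs3 and Tmem173. Of 20 sensor and adaptor genes with a row, 10 reached the minimum mean, none was 1.5-fold apart and 8 lay above the median of all genes. Tbk1, the kinase that activates Irf3, was at 10.42 FPKM in WT against 10.84 FPKM in KO, the RNA sensor gene Ddx58 at 2.81 and 3.24 FPKM, and the DNA pathway adaptor gene Tmem173 at 1.26 and 0.740 FPKM. Of 16 negative regulators, 13 were tested and none was 1.5-fold apart on that scale. Pias3 was at 4.68 and 3.01 FPKM, an FPKM ratio of 0.644 without the pseudocount. With the median of all genes brought to 0, Ptpn6 passed the limit, at a log2 ratio of 0.60. The phosphatase genes Ptpn2 (31.3 and 28.5 FPKM) and Ptpn11 (21.5 and 22.7 FPKM) were the highest, Ptpn6 was at 1.01 and 1.83 FPKM, and Socs3, a feedback inhibitor of STAT signalling, was at 0.757 and 1.36 FPKM.

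The low values of some class I rows also equalled small whole read ratios between the libraries. H2-M3 was at 0.214 FPKM in WT against 0.512 FPKM in KO, which is 3 KO reads for each WT read. H2-Q2 was at 0.834 and 0.664 FPKM, or 1 KO read for each WT read, and H2-K2 at 0.346 and 0.138 FPKM, or 0.500.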
